A study of Homo sapiens with 4 samples.

Results

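Genes of sphingolipid metabolism and signalling, 40 in all, were followed across 4 RNA-seq libraries of A673, an established Ewing sarcoma cell line. They were taken by symbol from a list of enzymes, regulators and receptors, and all 40 were found among the 23228 symbols of the deposited count tables. In all libraries the cells were grown with serum, insulin and beta-mercaptoethanol, transfected with siRNA by a lipid reagent and harvested at 48 h. The library control_SMPD1 received scrambled siRNA and is paired by its title with siSMPD1, which received siRNA against SMPD1. The library control_GPR64 also received scrambled siRNA and is paired with siGPR64, which received siRNA against GPR64, an adhesion G protein-coupled receptor now named ADGRG2. Each group is 1 library of 1 cell line, so no difference below has a replicate check and no p-value is given.

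Sphingolipids are membrane lipids built on a sphingoid base that is made from serine and palmitoyl-CoA in the endoplasmic reticulum. Ceramide stands at the centre of the pathway: it is turned into sphingomyelin or glycosphingolipids, and it is set free again by sphingomyelinases and by hydrolases of the lysosome. Ceramidases cut ceramide into sphingosine, which kinases phosphorylate to sphingosine 1-phosphate (S1P), a ligand of G protein-coupled receptors at the cell surface.

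Levels are given as CPM, gene counts in relation to the size of the library, after scaling of the libraries by TMM, a trimmed mean of gene ratios. A gene is counted as higher or lower when its mean over the pair of libraries is at least 1 CPM, the ratio is at least 2-fold and the 95% interval of the ratio excludes equality. That interval reflects counting error alone and says nothing of how far separate cultures differ. The SMPD1 pair holds 19614913 gene counts (control) and 18849264 (knockdown) and the GPR64 pair 2882854 and 2534861, so the GPR64 pair is measured less precisely. The level of 3 counts, taken here as the limit that a count of 0 allows, is 0.156 and 0.159 CPM in the SMPD1 pair and 1.03 and 1.18 CPM in the shallower one. The upper ends of the two-sided exact Poisson interval of a count of 0 are 0.192, 0.195, 1.26 and 1.45 CPM. Of 9 Ewing sarcoma markers, 8 were at 1 CPM or more in every library, and CD99 was listed at 0 in all 4. Entries that aligned to more than 1 place, 20.1% to 30.1% of a library, were not assigned to a gene. The 0 of CD99 is therefore not read as absence of its RNA. The labels give the tissue as muscle, yet 7 of 8 skeletal muscle markers together reached at most 0.364 CPM, with MYOD1, MYF5 and MYOG at 0. The eighth, PAX7, a developmental factor also known in Ewing sarcoma, measured 197, 190, 24.0 and 126 CPM in control_SMPD1, siSMPD1, control_GPR64 and siGPR64. Immune, epithelial and endothelial markers summed to at most 0.689, 0.783 and 1.57 CPM in any library, and adipose and fibroblast markers to 0.783 to 4.80 CPM.

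The 2 targeted genes were read first. SMPD1 is the gene of acid sphingomyelinase, a lysosomal enzyme that releases ceramide from sphingomyelin. It measured 414 CPM (7960 counts) in control_SMPD1, 91.7 CPM (1731 counts) in siSMPD1, 52.8 CPM (154 counts) in control_GPR64 and 232 CPM (592 counts) in siGPR64. SMPD1 was thus lower in its own knockdown than in the paired control, but its lowest level of all was in the other scrambled control. The ratio within the SMPD1 pair was 4.52-fold lower (95% interval 4.29 to 4.76). In bulk RNA, silencing in fewer cells and less RNA per cell cannot be told apart. GPR64 measured 388 CPM in control_SMPD1 against 539 in siSMPD1, and 108.6 CPM in control_GPR64 against 50.1 in siGPR64. It was lowest in siGPR64, at 2.16-fold (1.76 to 2.68) below the paired control, while the controls themselves lay 3.57-fold apart.

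The same number of members could be measured in each knockdown pair: 32 of the 40 genes had a mean of at least 1 CPM in each pair, and the other 8 in each pair were too low to be read. In the SMPD1 pair no member was higher and 1 was lower, SMPD1 itself, and 31 fell short of the rule. Over all 12749 genes measured there, 2.49% were higher and 1.11% lower. Apart from the siRNA target, then, siSMPD1 held no member past the rule. The median log2 ratio of the 32 members was 0.00 against -0.00 for all genes, and 27 of them (84.4%) lay within 1.5-fold of the control, against 86.9% of all genes.

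In the GPR64 pair 3 members were higher in siGPR64 and 3 were lower. The higher ones were SMPD1, NEU1 and UGT8, and the lower ones were KDSR, SGPP1 and GALC. Over all 12830 genes measured in that pair, 6.56% were higher and 5.18% lower, so the members' shares of 9.38% in each direction lay near those of the whole table. Their median log2 ratio was -0.02 against 0.01 for all genes, and the median size of the ratio, whatever its sign, was 0.38 against 0.39.

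**Figure D1:**
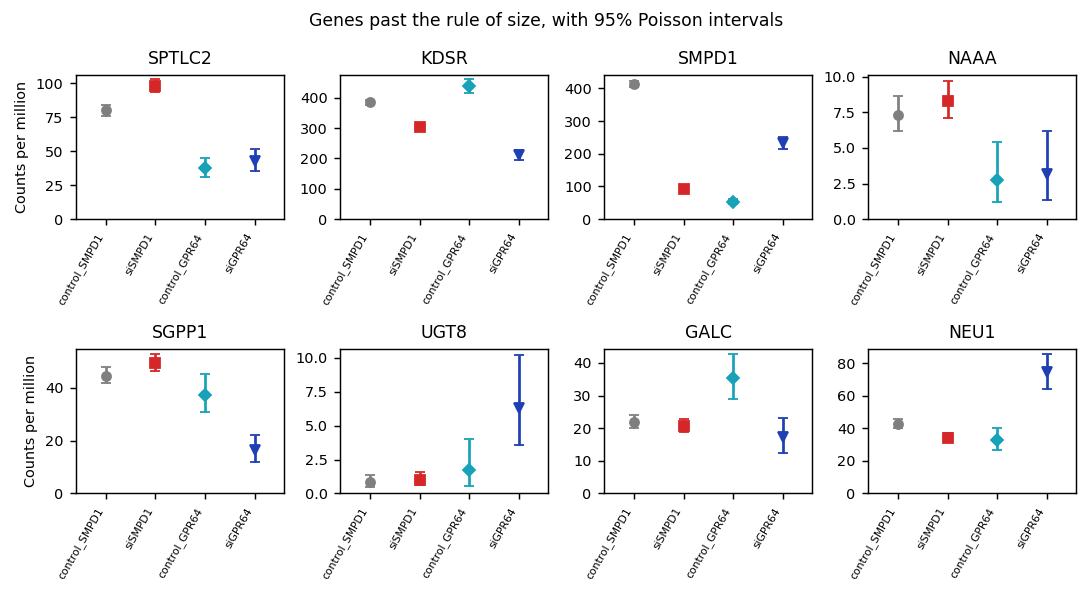
Level of each member past the rule in any comparison, in TMM-scaled CPM on linear axes that start at 0 and differ between genes, with exact Poisson 95% intervals for counting error. SMPD1 is highest in control_SMPD1 and lowest in control_GPR64, with both knockdown libraries between them.

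The sequences just upstream of the start sites of 3 members past the rule in the GPR64 pair are shown here, since these genes have 1 start site each in the RefSeq promoter table (GRCh38.p14): SMPD1 and NEU1, which were higher, and KDSR, which was lower. Each run is the 150 bases before the start, 5′ to 3′ on the gene's strand, with capitals marking GGGCGG (the GC box read by Sp1-type factors), CACGTG (an E-box) and CCAAT on either strand. As spelled, none of the motifs contains another.
SMPD1, chr11:6390324-6390473, plus strand: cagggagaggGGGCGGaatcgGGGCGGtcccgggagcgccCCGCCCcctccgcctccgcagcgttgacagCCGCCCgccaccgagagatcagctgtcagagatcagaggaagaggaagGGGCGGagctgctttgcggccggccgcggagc
NEU1, chr6:31862822-31862971, minus strand: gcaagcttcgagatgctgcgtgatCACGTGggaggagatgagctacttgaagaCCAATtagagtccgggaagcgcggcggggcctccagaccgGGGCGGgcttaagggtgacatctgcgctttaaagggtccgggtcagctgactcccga
KDSR, chr18:63367207-63367356, minus strand: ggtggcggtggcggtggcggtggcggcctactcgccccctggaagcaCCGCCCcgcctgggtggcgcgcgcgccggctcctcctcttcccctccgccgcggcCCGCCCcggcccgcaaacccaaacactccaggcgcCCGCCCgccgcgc
All 3 windows hold GC boxes, whichever way the gene moved, and of these 3 the NEU1 window alone holds CACGTG and CCAAT. Of the 40 members, 30 are in the table, with 48 start sites. SGPP1 is not among them. Some start sites of a gene lie close together, as in GALC and ORMDL3, so the 48 windows partly overlap. GGGCGG is in 32 of those 48 windows, against 36.79% of all 35116 windows of this length. CACGTG is in 2, that of NEU1 and 1 of the 3 of UGT8, against 4.568% of all windows. CCAAT is in 7, against 23.52%. These letter matches are a description and do not show binding.

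The first enzymes of the pathway make the sphingoid base. SPTLC1 and SPTLC2 are the subunits of serine palmitoyltransferase, the committed step. SPTLC1 measured 122 CPM in control_SMPD1 against 96.0 in siSMPD1, and 98.7 CPM in control_GPR64 against 100.3 in siGPR64. The 4 values lay close together, and the largest ratio in a pair was 1.27-fold lower in siSMPD1 (1.20 to 1.35). SPTLC2 measured 80.1, 98.2, 37.3 and 42.7 CPM in the same order. It separated the libraries by pair, not by knockdown: control_GPR64 was 2.14-fold (1.77 to 2.63) below control_SMPD1, while the knockdown ratios were 1.23-fold and 1.14-fold higher. Within each library's own reads of the subunit genes, SPTLC2 made up 39.4% in control_SMPD1 and 50.5% in siSMPD1, but 27.5% in control_GPR64 and 29.9% in siGPR64. The alternative subunit gene SPTLC3 had 14, 7, 0 and 0 counts and was too low to be read.

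KDSR reduces the ketone of the new sphingoid base. It measured 385 CPM (7404 counts) in control_SMPD1, 304 CPM (5738 counts) in siSMPD1, 438 CPM (1280 counts) in control_GPR64 and 211 CPM (538 counts) in siGPR64. Both controls lay above both knockdown libraries. ORMDL1, SGMS2 and GALC stood in the same order, as did ORMDL3 by a narrow margin in siSMPD1. Taken alone, siSMPD1 lay below both controls for 6 of 33 members and siGPR64 for 14. The share of all genes in this order was not counted, so the order is a description only. KDSR was 2.08-fold lower in siGPR64 (1.88 to 2.31), and in siSMPD1 it was 1.27-fold below its control (1.22 to 1.31), short of the rule. Against the other control, the log2 ratio of siGPR64 was -0.87, in the same direction but also short of the rule. DEGS1, the desaturase that completes ceramide, measured 106, 98.4, 67.8 and 83.8 CPM and stayed within 1.5-fold in both pairs.

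ORMDL1, ORMDL2 and ORMDL3 are membrane proteins that hold serine palmitoyltransferase in check. ORMDL1 measured 77.5 CPM in control_SMPD1 against 61.9 in siSMPD1, and 81.9 CPM in control_GPR64 against 57.6 in siGPR64. Like KDSR, and with the same limit, ORMDL1 was lower in both knockdown libraries than in either control. The ratios were 1.25-fold lower (1.16 to 1.35) in the SMPD1 pair and 1.42-fold lower (1.15 to 1.76) in the GPR64 pair, short of the rule. ORMDL2 measured 21.0, 20.7, 20.6 and 17.2 CPM and ORMDL3 18.1, 18.1, 21.2 and 15.3 CPM, with intervals that included equality in both pairs. ORMDL1 held 61.5% to 66.5% of the family's reads in every library.

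Sphingomyelin is made from ceramide by SGMS1 and SGMS2, and COL4A3BP (the ceramide transfer protein, CERT) brings ceramide to the Golgi for that step. SGMS1 measured 31.0, 25.2, 18.2 and 16.1 CPM in control_SMPD1, siSMPD1, control_GPR64 and siGPR64. SGMS2 measured 8.33, 6.57, 7.54 and 5.09 CPM. COL4A3BP measured 67.8, 68.0, 61.0 and 46.6 CPM. None of the 3 was past the rule in any comparison. In the GPR64 pair all 3 ratios were below 1, from 1.13-fold for SGMS1 to 1.46-fold for SGMS2, and only the interval of COL4A3BP (1.31-fold, 1.03 to 1.66) excluded equality.

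Among the sphingomyelinases, SMPD1 moved in opposite directions in the pairs. In siGPR64 it was 4.38-fold above control_GPR64 (3.68 to 5.28), and in siSMPD1 it was below control_SMPD1. The difference between the log2 ratios of the pairs was -4.31 (counting interval -4.57 to -4.04). Both directions depend on the control: against the other scrambled library, siSMPD1 was higher by 0.80 on the log2 scale, and siGPR64 had a log2 ratio of -0.84. The controls alone differed more than either pair, with SMPD1 in control_GPR64 7.85-fold below control_SMPD1 (6.70 to 9.27). The 4 lysosomal genes read for comparison were mixed in siGPR64. LAMP2, a lysosomal membrane protein, was 2.45-fold higher and CTSD, cathepsin D, 2.61-fold higher. LAMP1 was 1.91-fold lower and CTSB, cathepsin B, 1.22-fold higher, both short of the rule. Of the 10 members that act in the lysosome, SMPD1 included, 6 lay above control_GPR64 and 4 below it, with a median log2 ratio of 0.12. Against control_SMPD1 none of the 4 was past the rule in siGPR64: the log2 ratio was 0.81 for LAMP2, -0.0058 for CTSD, -0.66 for LAMP1 and -0.038 for CTSB. Their part in the SMPD1 result was not tested.

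The other sphingomyelinases varied little beside it. SMPD4, a neutral sphingomyelinase of the endoplasmic reticulum and nuclear envelope, measured 84.1 CPM in control_SMPD1 against 110.9 in siSMPD1, and 90.4 CPM in control_GPR64 against 110.9 in siGPR64. SMPD2 measured 8.69, 10.9, 10.3 and 11.0 CPM, and SMPD3 had 3, 3, 2 and 0 counts. SMPD4 lay above its control by 1.32-fold in siSMPD1 (1.23 to 1.41) and by 1.23-fold in siGPR64 (1.03 to 1.46), short of the rule in both. SMPD4 varied less between libraries than SMPD1 did, and the make-up of the family followed SMPD1. SMPD1 held 81.7% of sphingomyelinase reads in control_SMPD1 (exact binomial interval 80.9% to 82.4%), 42.9% in siSMPD1 (41.4% to 44.5%), 34.2% in control_GPR64 (29.8% to 38.8%) and 65.6% in siGPR64 (62.4% to 68.7%). These shares lie within a library and need no scaling between libraries. Per length of transcript the shares of SMPD1 were 88.3%, 56.1%, 46.5% and 76.4%.

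**Figure D2:**
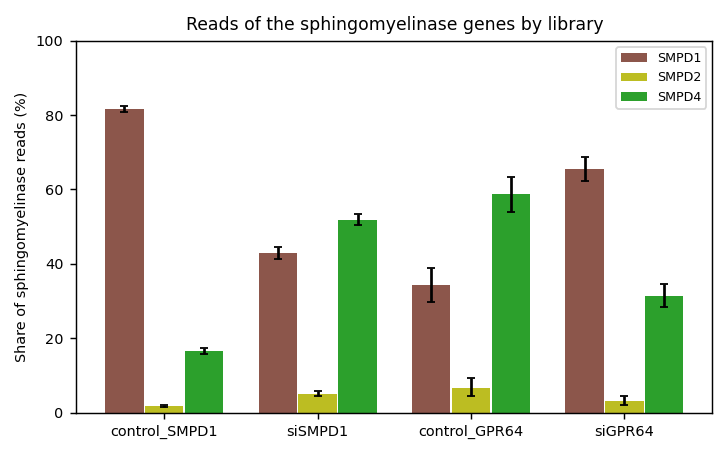
Share of the reads of the sphingomyelinase genes held by SMPD1, SMPD2 and SMPD4 in each library, in percent, with exact binomial 95% intervals; SMPD3, with at most 3 counts a library, is not drawn. SMPD4 takes the larger share in siSMPD1 (51.9%) and in control_GPR64 (58.7%), and SMPD1 in the other 2 libraries.

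Ceramide is broken down by ceramidases or phosphorylated by the kinase CERK. CERK measured 118 CPM in control_SMPD1 against 177 in siSMPD1, and 123 CPM in control_GPR64 against 71.7 in siGPR64. The controls lay 1.04-fold apart (0.931 to 1.17), and the knockdown libraries lay on opposite sides of them. CERK was 1.5-fold above its control in siSMPD1 (1.42 to 1.59) and 1.71-fold below it in siGPR64 (1.43 to 2.06), both short of the rule. The log2 ratios of the pairs differed by 1.36 (counting interval 1.10 to 1.63). Without replicates this difference has no test.

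ASAH1, the acid ceramidase of the lysosome, measured 50.2, 50.1, 48.6 and 37.2 CPM in control_SMPD1, siSMPD1, control_GPR64 and siGPR64. In the SMPD1 pair its counting interval ran from 0.916-fold to 1.10-fold, and its ratio was the smallest of the group. ACER3, an alkaline ceramidase, measured 53.7, 49.3, 29.8 and 38.4 CPM. NAAA, a related lysosomal amidase, measured 7.34, 8.32, 2.74 and 3.13 CPM. NAAA, like SPTLC2, set the pairs apart: it was 2.65-fold lower in control_GPR64 than in control_SMPD1 (1.32 to 6.32), from 8 counts, and its ratio was 1.13-fold in both knockdown pairs. ACER2 had 12, 21, 4 and 1 counts, and ASAH2 had none in any library.

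Among the enzymes of sphingosine phosphate, the phosphatase SGPP1, which returns S1P to sphingosine, was the one member past the rule in a knockdown pair. It measured 44.6 CPM (857 counts) in control_SMPD1, 49.4 CPM (933 counts) in siSMPD1, 37.3 CPM (109 counts) in control_GPR64 and 16.5 CPM (42 counts) in siGPR64. The siGPR64 library stood alone, below the other 3. SGPP1 was 2.26-fold below control_GPR64 there (1.58 to 3.32), and the log2 ratio to the other control was -1.44, also past the rule. The second phosphatase gene, SGPP2, had 4, 9, 1 and 0 counts, so SGPP1 carried at least 99% of the reads of the phosphatase genes wherever they were counted.

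SPHK1 and SPHK2 are the kinases that make S1P. SPHK2 measured 29.6, 33.2, 34.6 and 28.2 CPM in control_SMPD1, siSMPD1, control_GPR64 and siGPR64, and SPHK1 measured 1.30, 1.06, 0.343 and 1.57 CPM (25, 20, 1 and 4 counts). SPHK2 was the main kinase transcript throughout, with 94.7% to 99.0% of kinase reads. Neither was past the rule in a knockdown pair. For SPHK1 the ratio in the GPR64 pair rests on 1 and 4 counts, and its interval ran from 0.453-fold to 225-fold. SGPL1, the lyase that degrades S1P for good, measured 64.3, 72.0, 111 and 92.1 CPM and stayed within 1.5-fold in both pairs. SPNS2, an S1P exporter, had 4, 8, 1 and 1 counts.

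S1P is sensed by receptors, of which 3 were on the list. S1PR3 measured 66.8 CPM in control_SMPD1 against 95.9 in siSMPD1, and 49.7 CPM in control_GPR64 against 80.7 in siGPR64. Both knockdown libraries lay above both controls. SMPD2, SMPD4 and PSAP stood in the same order. Taken alone, siSMPD1 lay above both controls for 12 of 33 members and siGPR64 for 10. The share of all genes in this order was not counted, so the order is a description only. S1PR3 lay above its control by 1.43-fold in siSMPD1 (1.33 to 1.54) and by 1.62-fold in siGPR64 (1.31 to 2.02), short of the rule in both. S1PR2 measured 4.06 CPM in control_SMPD1 against 6.68 in siSMPD1, and 7.88 CPM in control_GPR64 against 12.1 in siGPR64. Each knockdown was above its paired control, by 1.64-fold (1.23 to 2.21) and 1.53-fold (0.870 to 2.77), but siSMPD1 was below control_GPR64. S1PR1 had 4, 1, 1 and 2 counts and was too low to be read. S1PR3 gave 94.0%, 93.4%, 85.8% and 86.2% of receptor reads, and per merged exon length 80.9%, 79.4%, 62.1% and 62.8% in the order of libraries above. The merged exons hold 13422 bases for S1PR3 and 3643 for S1PR2, so the shares per length depend on the annotation.

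**Figure D3:**
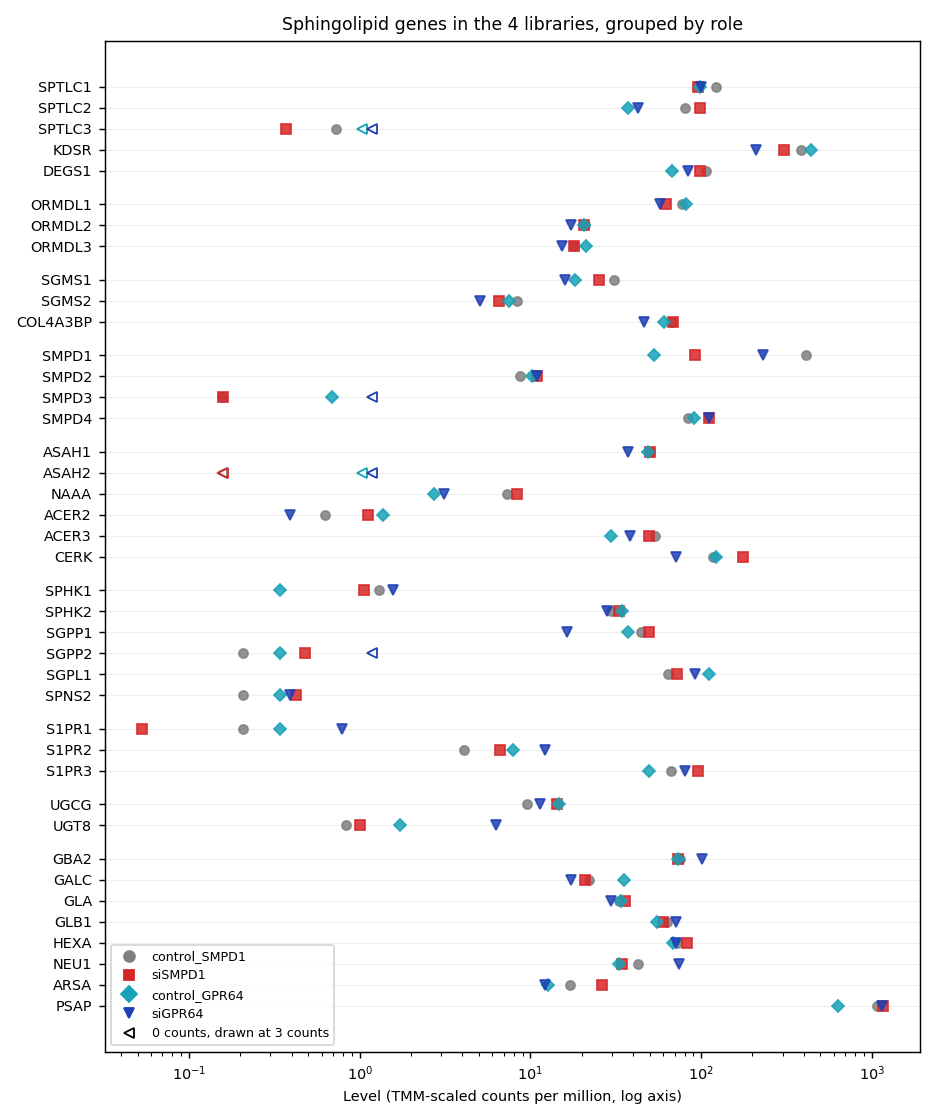
Level of all 40 members in the 4 libraries, in TMM-scaled CPM on a log axis, grouped by role; open triangles are libraries with 0 counts, drawn at the level of 3 counts. SMPD1 shows the widest spread among the members above 10 CPM, from 52.8 to 414 CPM.

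Glycosphingolipids start from ceramide with UGCG, which adds glucose, or UGT8, which adds galactose. UGCG measured 9.53, 14.4, 14.7 and 11.4 CPM in control_SMPD1, siSMPD1, control_GPR64 and siGPR64. It was 1.51-fold higher in siSMPD1 (1.25 to 1.83), yet siSMPD1 stood level with control_GPR64. UGT8 measured 0.833 CPM (16 counts) in control_SMPD1, 1.01 CPM (19 counts) in siSMPD1, 1.71 CPM (5 counts) in control_GPR64 and 6.27 CPM (16 counts) in siGPR64. The siGPR64 library was the highest. UGT8 was 3.40-fold higher there than in control_GPR64 (1.28 to 12.8), and its log2 ratio to the other control was 2.84. Against that control, where UGT8 lay at 0.833 CPM, it met the mean of 1 CPM only through siGPR64, so this second ratio is a description. The interval is wide because the control held 5 counts, and UGT8 drops out where a mean of at least 5 CPM is required.

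Most of the listed enzymes that dismantle glycosphingolipids work in the lysosome. NEU1, a sialidase, measured 42.8 CPM (823 counts) in control_SMPD1, 34.2 CPM (646 counts) in siSMPD1, 32.9 CPM (96 counts) in control_GPR64 and 74.4 CPM (190 counts) in siGPR64. It was highest in siGPR64, 2.26-fold above control_GPR64 (1.76 to 2.92), and 1.25-fold lower in siSMPD1 (1.13 to 1.39), short of the rule. Against control_SMPD1 its log2 ratio in siGPR64 was 0.80, short of the rule. GALC, which removes galactose from galactosylceramide, measured 22.0 CPM (422 counts), 20.8 CPM (392 counts), 35.3 CPM (103 counts) and 17.2 CPM (44 counts) in the same order. Here control_GPR64 was the library that stood apart, on the high side. GALC was 2.04-fold lower in siGPR64 (1.42 to 2.98), and its log2 ratio to control_SMPD1 was -0.35.

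PSAP, the precursor of the saposins that present lipids to these hydrolases, measured 1078 CPM in control_SMPD1 against 1168 in siSMPD1, and 638 CPM in control_GPR64 against 1141 in siGPR64. As with SMPD1, control_GPR64 was the lowest library. PSAP was 1.79-fold higher in siGPR64 (1.69 to 1.90), the member nearest to the rule from below, while GALC at 2.04-fold and KDSR at 2.08-fold lay just inside it. ARSA, which removes sulphate from sulphatide, measured 17.2, 26.3, 12.7 and 12.1 CPM and was 1.53-fold higher in siSMPD1 (1.33 to 1.77), short of the rule. HEXA, a subunit of hexosaminidase, measured 72.1, 82.9, 68.2 and 70.9 CPM, and GBA2, a glucosylceramidase outside the lysosome, 74.9, 73.1, 73.0 and 100.7 CPM. These are the smallest ratios of the group, HEXA in the GPR64 pair at 1.04-fold (0.846 to 1.28) and GBA2 in the SMPD1 pair at 1.02-fold (0.951 to 1.10). GLA and GLB1, the lysosomal alpha- and beta-galactosidases, lay between 29.8 and 35.8 CPM and between 55.5 and 71.7 CPM. Of the 10 members that act in the lysosome, a subset drawn after their values were seen, 1 was lower in siSMPD1, against 1.11% of all genes, and in siGPR64 2 were higher and 1 lower, against 6.56% and 5.18% of all genes; nothing particular to the subset is read from counts this small.

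**Figure D4:**
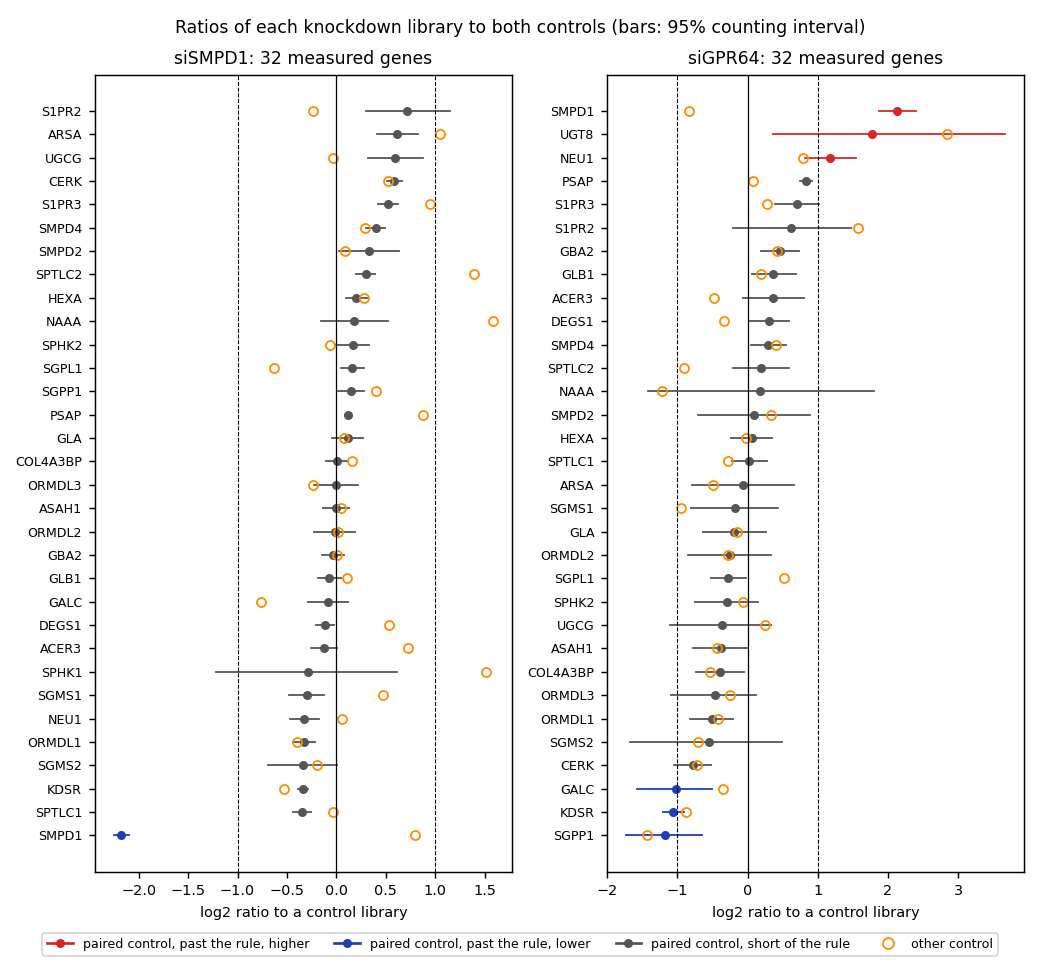
Log2 ratio of each measured member in siSMPD1 (left) and siGPR64 (right) to the paired control, with 95% counting intervals, and to the other control (open orange circles). Dashed lines mark 2-fold. SMPD1 changes side with the control in both panels, while SGPP1 and UGT8 in siGPR64 lie beyond 2-fold against both controls. Against control_SMPD1, UGT8 met the mean of 1 CPM only through siGPR64.

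The scrambled controls were also compared with each other, across the pairs. Their gap does not measure the spread of a ratio within a pair. Of 32 measured members, 3 were lower in control_GPR64 than in control_SMPD1, namely SMPD1, SPTLC2 and NAAA, and none was higher. Over all 12798 genes measured there, 7.02% were higher and 8.33% lower, so the members' share of 9.38% lower lay near that of all genes. The sources used here do not say whether the pairs shared culture or sequencing. Pair, depth and control cannot be told apart.

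Counting only members past the rule against both controls in the same direction, siSMPD1 had none of 31 members. Over all 12571 genes tested this way in siSMPD1, 0.978% were higher and 0.605% lower. In siGPR64 UGT8 was higher, with the limit given above for its level in control_SMPD1, and SGPP1 lower, 2 of 32 members, against 1.52% of genes higher and 1.4% lower among 12561. SMPD1, NEU1, KDSR and GALC did not meet the 2-fold bound against control_SMPD1. The knockdowns did not share a direction over the list: 16 of the 31 members measured in both pairs (51.6%) had ratios of the same sign, against 53.8% of 12386 genes.

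The members were also set in order of level per merged exon length (GENCODE 29 on GRCh38, an annotation other than the authors'). PSAP came first in all 4 libraries, at 374, 405, 221 and 396 CPM per kilobase. SMPD1 came next in control_SMPD1 at 169 CPM per kilobase and in siGPR64 at 94.6 CPM per kilobase. It ranked 6 in siSMPD1 at 37.4 CPM per kilobase and 8 in control_GPR64 at 21.5 CPM per kilobase. SPTLC3, SMPD3, ASAH2, ACER2, SGPP2, SPNS2 and S1PR1, which had a mean under 1 CPM in each of the 3 comparisons, stood near the end of the order in every library, and ASAH2 had no counts at all.

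A second list of 40 genes of the same pathway, none of them members, was read alongside, and 28 of them were measured in each pair. In siSMPD1, 1 was higher and none lower, against 2.49% and 1.11% of all genes. It was S1PR5, another S1P receptor, which went from 0.625 CPM (12 counts) to 1.43 CPM (27 counts), 2.24-fold (1.12 to 4.96). S1PR5 met the mean of 1 CPM only through siSMPD1, the library where it was high, so its count among the higher genes supports nothing. In siGPR64, 2 were higher and 1 lower, 7.14% and 3.57% of the list, which lay near the 6.56% and 5.18% of all genes. CERS1 is a ceramide synthase whose transcript is shared with GDF1. It went from 2.06 CPM (6 counts) to 5.88 CPM (15 counts), 2.71-fold higher (1.05 to 8.99). Its level in control_SMPD1 was 2.29 CPM, and siGPR64 was past the rule against that control too (log2 ratio 1.34). Both ratios rest on the same 15 counts in siGPR64. B4GALNT1, the synthase of complex gangliosides, went from 17.8 to 36.4 CPM, 2.03-fold higher (1.44 to 2.93), but siGPR64 was below control_SMPD1, which held 53.0 CPM. CERS6, another ceramide synthase, went from 55.8 to 27.0 CPM, 2.06-fold lower (1.55 to 2.78), to about its level in control_SMPD1, 29.9 CPM. The medians of this list were 0.07 and 0.15 on the log2 scale in the SMPD1 and GPR64 pairs.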

How the data were processed

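Ribosome-depleted total RNA of A673 cells underwent paired-end sequencing, per the labels' protocols. Per the submitters' processing notes, the build was hg19 and the tools included TopHat2 and HTSeq. The sources used here give no strand setting, annotation or counting mode, so reads of overlapping antisense genes cannot be told apart, which touches ORMDL2, SMPD2, SPHK2 and SMPD4 most among the members (GENCODE 29). The authors deposited raw counts per gene symbol, with no normalization. HTSeq summary lines (36.5% to 44.8% of entries) were left out.

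Counts were scaled with TMM (edgeR 4.0.16, R 4.3.3) on genes that reached 1 CPM in any library. Log2 ratios used a prior of 0.5 count, and their 95% intervals are exact Clopper-Pearson intervals for how the reads divide between the libraries (scipy 1.17.1 for shares). Without molecular identifiers, intervals and the limit of 3 counts cover counting error only. The rule of size was tested on simulated data that carried counting error alone. Such data cannot show how the rule behaves when cultures or batches differ. Genes named are the targets, each member past the rule, the largest and smallest ratio in each role, small receptor, kinase and ORMDL families, and further pathway genes past the rule in a knockdown pair; other members named were added after their values were seen, as were the family shares and promoter letters. The members and lists were chosen with earlier results of these data known. Alternatives were other scalings, filters, folds, priors, the other control, and DESeq2 1.42.0 and edgeR's quasi-likelihood test with both controls as 1 group.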

Additional observations from a re-analysis of the deposited data

Results flagged for a closer look

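SMPD1 was past the rule in both knockdown pairs, in opposite directions. Its log2 ratio was -2.17 in the SMPD1 pair, where it is the siRNA target, and 2.13 in the GPR64 pair. This difference between the pairs was not tested, for want of replicates. The level of SMPD1 in control_GPR64, 52.8 CPM, was below that in every other library, the SMPD1 knockdown included.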

How the results depend on the processing

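No paired analysis was possible because each group has 1 library and the labels give no replicate numbers. The members past the rule were unchanged under DESeq2 size factors, library totals, no filter on low counts and a prior of 2 counts, in all 3 comparisons. A mean of at least 5 CPM removed UGT8 from the 6 members in the GPR64 pair and changed no other member. In the SMPD1 pair, where 459 genes and 1 member were past the rule, no filter gave 697 genes and at least 5 CPM 198 genes. A bound of 1.5-fold gave 1535 of 12749 genes and 5 of 32 members, 4 higher and 1 lower (adding ARSA, CERK, S1PR2 and UGCG). Within 1.5-fold, whatever the interval, lay 84.4% of the members, near the 86.9% of all genes. The other control gave 3 members there (ARSA, NAAA and SPTLC2) and not SMPD1, whose log2 ratio turned to 0.80. All 3 were higher, 9.09% of the 33 members measured, near the 10.5% of all genes. No member was lower, against 8.02% of all genes. In the GPR64 pair 1.5-fold gave 3148 of 12830 genes in place of 1506 and 9 of 32 members in place of 6. Of these members 5 were higher and 4 lower, with CERK, PSAP and S1PR3 added. Within 1.5-fold lay 68.8% of the members, near the 65.8% of all genes. In the comparison of controls it gave 3985 of 12798 genes in place of 1965. There 11 of 32 members, 4 higher and 7 lower, stood in place of 3. Within 1.5-fold lay 62.5% of the members, near the 63.4% of all genes. Against the other control siGPR64 had 4 members past the rule. SGPP1 remained. UGT8 remained too, but it met the mean of 1 CPM there only through siGPR64, the library where it was high. Both ratios of a gene use the same siGPR64 library, so the second is no independent check. S1PR2 (2.97-fold higher) and NAAA (2.32-fold lower) were added. GALC, KDSR, NEU1 and SMPD1 were lost, with SMPD1 turned to -0.84. Of the 33 members measured there, 6.06% were higher and 6.06% lower, near the 6.18% and 5.25% of all genes.

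With both controls as 1 group, edgeR's quasi-likelihood test gave 0 genes and 0 members for siSMPD1 and for siGPR64 after Benjamini-Hochberg adjustment. DESeq2 gave 1 gene and 0 members for siSMPD1, and 0 genes and 0 members for siGPR64, after the same adjustment. The spread there is that between the 2 controls. In these fits the log2 ratio of SMPD1 in siGPR64 was -0.0204 with edgeR and -0.0095 with DESeq2, since the controls differ so widely for this gene. The GPR64 pair's depth limits genes of few counts: UGT8, NAAA and SPHK1 rest on 1 to 16 counts a library there.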
